A study of Mus musculus with 6 samples.

Results

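The urea cycle and its nitrogen entry steps were examined in mouse liver through 9 genes, covered on the array by 14 of the 45037 probe sets tested. A probe set is a group of short probes read as 1 value for a transcript. Members were all probe sets that the array's annotation lists for Cps1, Otc, Ass1, Asl, Arg1, Nags, Glud1, Slc25a15 and Slc25a13. Of the 14, 13 are listed for the member alone. The exception is 1416239_at, the brighter of the 2 probe sets of Ass1, which is also listed for the transcribed pseudogene Gm5424. Otc had 3 probe sets, Ass1, Glud1 and Slc25a15 had 2 each, and the other members had 1.

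The urea cycle turns toxic ammonia into urea, and in mammals it runs in full mainly in hepatocytes, most strongly in those around the portal vein. Ammonia enters through carbamoyl phosphate synthetase in the mitochondrion, and a second nitrogen enters as aspartate in the cytosol. Arginase then releases urea and ornithine, and the ornithine goes back into the mitochondrion. Transcription of the enzyme genes is known to respond to glucagon, glucocorticoids and protein intake.

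Each array held liver RNA of 1 female mouse, 8 weeks old and fed chow. There were 3 mice of the inbred strain C57BL/6J and 3 of B6.C3H-6T, a congenic strain that carries DNA of the C3H strain on chromosome 6 in the C57BL/6J background and, by the title of the series, has little IGF-1 in serum. Where the C3H segment begins and ends is not stated in the labels. Slc25a13 is the 1 member on chromosome 6. Values are log2 expression values, so a difference of 1 is 2-fold, and differences are given as B6.C3H-6T minus C57BL/6J.

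The arrays were alike in scale, with medians from 6.07 to 6.11 and pairwise correlations from 0.993 to 0.997 across probe sets, which do not count as replicates. The 3' minus 5' signal of the Actb control, a sign of RNA integrity, ran from 0.59 to 0.61 in C57BL/6J and from 0.53 to 0.70 in B6.C3H-6T. The tissue label was borne out by the 9 measured hepatocyte markers, all with a mean above 12, among them Alb (albumin) at 14.50 to 14.56. Of these 9, 8 had a higher mean in B6.C3H-6T, as had 10203 of all 18193 genes. At 3 of them B6.C3H-6T was higher without overlap of the strains, against 10.3% of all genes. At an unadjusted p under 0.05, 2 were higher (6.36% of all genes were higher at that level). The 2 were Tat, described further on, and Hpd by 0.17 ± 0.07, and in 4 of the 6 fits that leave out 1 mouse (C57BL/6J replicates 2 and 3, and in the congenic strain replicates 1 and 2) the count was 1. The summed linear level of the 9 markers ran from 141439 to 153073 in C57BL/6J and from 150980 to 156260 in B6.C3H-6T, so the strains overlapped. Markers of myeloid cells, which include the Kupffer cells of liver, had lower means in the congenic strain for 8 of 8 genes, 6 of them at an unadjusted p under 0.05 (5.82% of all genes were lower at that level) and none after adjustment in limma. Only 1 of the 8 was left at that level with C57BL/6J replicate 2 taken out, 2 with B6.C3H-6T replicate 2 taken out and 2 without moderated variances. Their summed linear level ran from 8663 to 10033 in C57BL/6J and from 6932 to 8330 in B6.C3H-6T, with none of the 8 near the bottom of the scale (lowest value 6.98). Cd68 and Vsig4 differed by -0.28 ± 0.09 and -0.24 ± 0.08. Of 7 intestinal markers 4 had a higher mean in B6.C3H-6T and 3 a lower one, with a median difference of 0.07. At an unadjusted p under 0.05, 2 were lower and 0 higher (5.82% of all genes were lower at that level). The 2 were Lgals4 by -0.70 ± 0.25 and Fabp2 by -0.41 ± 0.13, and 5 of the 7 had a mean under 7. Taking out B6.C3H-6T replicate 2 brought Lgals4 to -0.35, and 0 of the 7 were at that level with C57BL/6J replicate 2 or 3 taken out or without moderated variances. Endothelial and stellate cell markers had 0 of 8 members each at an unadjusted p under 0.05, and cholangiocyte markers 0 of 6. In whole liver, fewer cells of a type and less RNA per cell cannot be told apart. What part the myeloid and hepatocyte marker levels have in the values below was not tested.

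The promoter sequences of 3 members show what lies ahead of genes that differed to unlike degrees. Ass1 had the largest difference among the 14 probe sets, 0.87 at 1459937_at. Its brighter probe set 1416239_at differed by 0.42, less than the 0.57 of Asl. Slc25a15 had 2 probe sets that were both higher at an unadjusted p under 0.05, and Glud1 had both probe sets near 0. Each sequence is the 250 bases before a RefSeq transcript start (build GRCm38.p6), 5′ to 3′ along the gene, with every match to a searched motif in capitals. They are chr2:31470020-31470269 on the plus strand, chr8:22398622-22398871 on the minus strand and chr14:34310477-34310726 on the plus strand.
Ass1: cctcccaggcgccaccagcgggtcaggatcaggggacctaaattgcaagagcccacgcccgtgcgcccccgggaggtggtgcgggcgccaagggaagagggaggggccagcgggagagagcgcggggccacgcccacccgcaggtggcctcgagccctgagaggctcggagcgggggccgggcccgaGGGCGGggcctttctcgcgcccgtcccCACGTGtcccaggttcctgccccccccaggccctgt
Slc25a15: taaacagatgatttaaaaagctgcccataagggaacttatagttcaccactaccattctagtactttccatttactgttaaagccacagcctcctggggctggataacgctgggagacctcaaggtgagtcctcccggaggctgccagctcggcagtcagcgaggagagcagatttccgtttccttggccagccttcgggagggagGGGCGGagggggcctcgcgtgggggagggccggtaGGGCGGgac
Glud1: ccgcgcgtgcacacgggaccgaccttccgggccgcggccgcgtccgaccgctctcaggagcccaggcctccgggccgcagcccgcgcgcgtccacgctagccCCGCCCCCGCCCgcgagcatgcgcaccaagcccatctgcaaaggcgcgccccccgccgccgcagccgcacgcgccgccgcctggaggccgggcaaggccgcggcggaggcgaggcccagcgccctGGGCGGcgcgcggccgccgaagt
The motifs searched on both strands were the TATA box TATAAA, the CCAAT box CCAAT, the GC box GGGCGG, the E-box CACGTG, the cAMP response element TGACGTCA, the C/EBP site TTGCNNAA and the FOXA site TGTTTAC.

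RefSeq windows were matched for 6 of the 9 members, 7 windows in all because Slc25a15 has 2 starts. No window was matched for Cps1, Asl and Arg1. Of the members higher at an unadjusted p under 0.05, the windows thus cover only Ass1 and Slc25a15. The Ass1 window held a GC box and, 36 to 31 bases before the start, an E-box. An E-box also lay in the second Slc25a15 window, which starts at another transcript start and is not printed here, and in the window of Slc25a13, where no strain difference passed any threshold. Of all 32851 windows of this length, 6.02% held an E-box and 32.7% a GC box. GC boxes were present in the windows of Ass1, Nags, Glud1 and Slc25a15, and a CCAAT box (33.8% of all windows) in that of Slc25a13. The TATA box, cAMP response element, C/EBP and FOXA letters were found in none of the 7 windows, against 12.4%, 1.55%, 9.56% and 3.17% of all windows. The Otc window held none of the 7 motifs. Such matches describe letters only, and the windows reach no further than 250 bases.

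The comparison asked which steps of the cycle differ in liver between the strains. In B6.C3H-6T, 12 of the 14 probe sets had a higher mean and 2 a lower one. At an unadjusted p under 0.05, 7 were higher and 0 lower, covering Ass1, Asl, Arg1, Cps1 and Slc25a15, against 5.74% of all probe sets that were higher at that level. Adjusted over all 45037 probe sets with limma, 0 of the 14 passed 0.05, where 0.0577% of all probe sets did. The nearest was Ass1 at an adjusted p of 0.0554. The 2 strains did not overlap at 7 of the 14, all higher, against 9.58% of all probe sets. The median difference was 0.19 over the 14 probe sets and 0.02 over all probe sets. Nags, Otc, Glud1 and Slc25a13 had no probe set at an unadjusted p under 0.05.

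**Figure D1:**
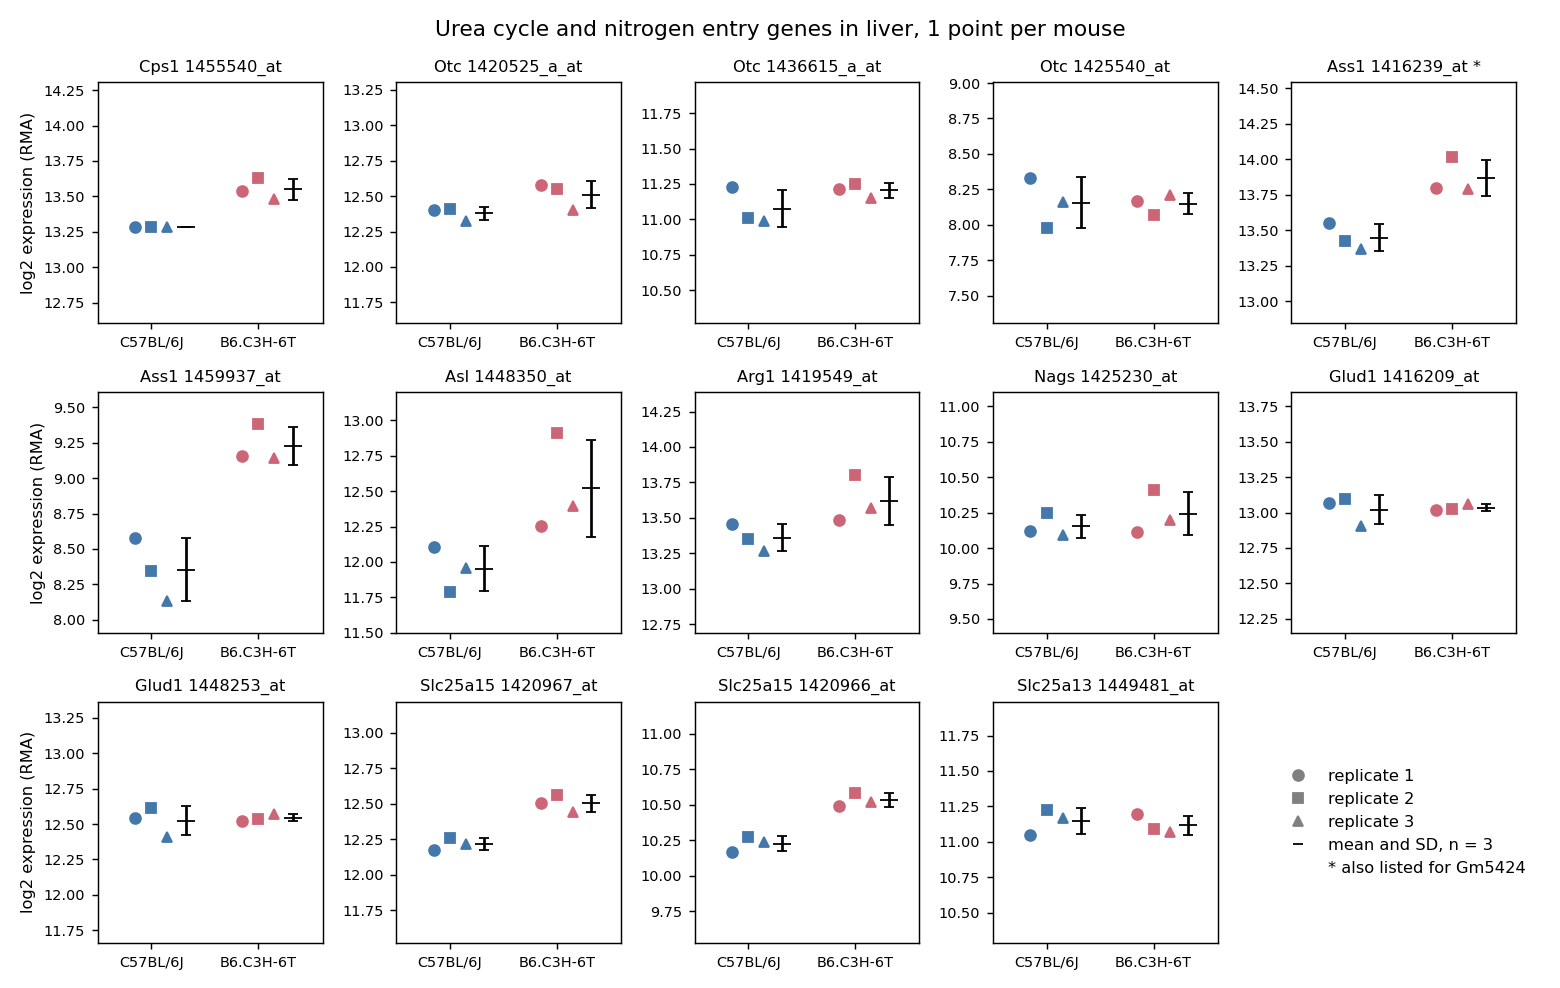
Log2 expression (vertical axis, each panel spanning the same range) of the 14 probe sets in the 3 C57BL/6J and 3 B6.C3H-6T mice, 1 symbol per mouse, with the mean and SD beside them. The strains are apart for Cps1, both probe sets of Ass1, Asl, Arg1 and both of Slc25a15, and overlap for the other 7.

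Ass1 encodes argininosuccinate synthase, which joins citrulline and aspartate and so brings in the second nitrogen. Its probe set 1459937_at, listed for Ass1 alone, read 8.58, 8.35 and 8.13 in the C57BL/6J mice and 9.16, 9.38 and 9.15 in the B6.C3H-6T mice. Every B6.C3H-6T mouse was above every C57BL/6J mouse. The difference was 0.87 ± 0.12 (SE, 3 mice per strain), or 1.83-fold with a 95% interval from 1.53 to 2.20. The gene fit takes 1459937_at alone for Ass1 and leaves out the brighter 1416239_at, which is also listed for Gm5424. With 1 probe set a gene and adjustment over 18193 genes, Ass1 passed (limma adjusted p = 0.0411), 1 of 13 genes that did (0.0715% of genes). That call is narrow. Taken from the fit on all probe sets, the adjusted p over genes was 0.0496. Without 1 mouse it was 0.239 (C57BL/6J replicate 2), 0.181 (C57BL/6J replicate 3), 0.0787, 0.101 and 0.0682 (B6.C3H-6T replicates 1, 2 and 3), and 0.0219 without C57BL/6J replicate 1.

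The other probe set of Ass1, 1416239_at, shares its listing with Gm5424, so its signal cannot be assigned to Ass1 alone. It read 13.55, 13.42 and 13.37 in C57BL/6J and 13.80, 14.02 and 13.79 in B6.C3H-6T. Here too no mice of the 2 strains overlapped. The difference was 0.42 ± 0.08, or 1.34-fold (1.17 to 1.53), with a limma adjusted p of 0.220 over all probe sets. Both probe sets thus pointed the same way, by unequal amounts. The value of 1459937_at minus that of 1416239_at was -4.97, -5.08 and -5.23 in C57BL/6J and -4.64, -4.64 and -4.65 in B6.C3H-6T, a shift of 0.45 with no overlap. A two-sided exact permutation test gave p = 0.1, the smallest that 3 against 3 mice allow, and 0.6 adjusted over the 6 pairs of probe sets of 1 gene that were compared. Whether the shared listing, or the position of 1416239_at near the top of the scale (highest value on any array 14.56), bears on the smaller difference was not tested. Because kidney tubules also express Ass1, their markers were set beside it. Of 8 kidney markers 7 were higher in B6.C3H-6T, 2 at an unadjusted p under 0.05 (Cdh16 by 0.19 and Slc22a6 by 0.23), where 6.36% of all genes were. That count rested on single mice, at 5 with C57BL/6J replicate 2 taken out, 1 with C57BL/6J replicate 1 and 0 both with C57BL/6J replicate 3 and with B6.C3H-6T replicate 1. The mean of its probe sets put Slc22a6 at 0.12. Their summed level overlapped, from 704 to 820 and from 800.0 to 878, and the tubule marker Umod lay between 4.14 and 4.24 on every array, close to the lowest values of the arrays (3.14 to 3.24). The part of kidney tissue in the values of Ass1 was not tested.

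Asl encodes argininosuccinate lyase, which splits the product of Ass1 into arginine and fumarate. It read 12.11, 11.79 and 11.96 in C57BL/6J and 12.26, 12.91 and 12.40 in B6.C3H-6T. The strains did not overlap, but the B6.C3H-6T mice differed widely among themselves (SD 0.34 against 0.16), with replicate 2 far above the other two. The difference was 0.57 ± 0.16, or 1.48-fold (1.16 to 1.90; limma adjusted p = 0.314), and leaving out B6.C3H-6T replicate 2 brought it to 0.38.

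Arg1, the liver arginase that releases urea, read 13.46, 13.35 and 13.27 in C57BL/6J and 13.48, 13.81 and 13.57 in B6.C3H-6T. The lowest B6.C3H-6T mouse stood just above the highest C57BL/6J mouse. The difference was 0.26 ± 0.09, or 1.19-fold (limma adjusted p = 0.413; unadjusted p = 0.0236). Of the 6 fits that leave out 1 mouse, 3 kept the unadjusted p under 0.05, and leaving out B6.C3H-6T replicate 2 gave 0.16.

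Among the mitochondrial enzymes, Cps1 encodes carbamoyl phosphate synthetase, which takes up free ammonia in the first committed step. It read 13.29, 13.28 and 13.29 in C57BL/6J, a spread of 0.0025 (SD), and 13.54, 13.63 and 13.48 in B6.C3H-6T. All B6.C3H-6T mice were above all C57BL/6J mice. The difference was small, 0.26 ± 0.06, or 1.20-fold (1.09 to 1.33; limma adjusted p = 0.274), and it stayed between 0.23 and 0.30 when any 1 mouse was left out, with an unadjusted p under 0.05 each time.

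Otc encodes ornithine transcarbamylase, which makes citrulline from ornithine and carbamoyl phosphate, and lies on the X chromosome. Its brightest probe set, 1420525_a_at, read 12.40, 12.41 and 12.33 in C57BL/6J and 12.58, 12.55 and 12.40 in B6.C3H-6T. B6.C3H-6T replicate 3 fell among the C57BL/6J mice. The difference was 0.13 ± 0.07 with a 95% interval from -0.03 to 0.29 (limma adjusted p = 0.556). The second probe set, 1436615_a_at, differed by 0.13 ± 0.08, and the dimmest, 1425540_at, by -0.01 ± 0.09.

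Nags makes N-acetylglutamate, the activator that Cps1 needs. It read 10.12, 10.25 and 10.09 in C57BL/6J and 10.11, 10.41 and 10.20 in B6.C3H-6T, with the strains overlapping. The difference was 0.09 ± 0.09 with an interval from -0.11 to 0.29 (limma adjusted p = 0.760).

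Glud1 encodes glutamate dehydrogenase, which can release ammonia from glutamate inside the mitochondrion. Its probe set 1416209_at read 13.07, 13.09 and 12.91 in C57BL/6J and 13.02, 13.02 and 13.06 in B6.C3H-6T, and 1448253_at read 12.54, 12.61 and 12.41 against 12.52, 12.54 and 12.57. All B6.C3H-6T values lay within the range of C57BL/6J on both. Differences were 0.01 ± 0.07 and 0.02 ± 0.07, with intervals from -0.15 to 0.17 and from -0.14 to 0.18, and smaller differences were not detectable with 3 mice per strain.

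The 2 mitochondrial carriers gave unlike values, and the gap between them was not tested. Slc25a15 encodes the ornithine carrier that exchanges cytosolic ornithine for citrulline. Its probe set 1420967_at read 12.17, 12.26 and 12.22 in C57BL/6J and 12.50, 12.56 and 12.44 in B6.C3H-6T, and 1420966_at read 10.17, 10.27 and 10.24 against 10.49, 10.58 and 10.52. On both, every B6.C3H-6T mouse was above every C57BL/6J mouse. The differences were 0.29 ± 0.06 (1.22-fold; limma adjusted p = 0.250) and 0.31 ± 0.06 (1.24-fold; adjusted p = 0.230). These probe sets cite the same source sequence in the annotation and are not independent evidence of each other.

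Slc25a13 encodes citrin, the carrier that brings aspartate out of the mitochondrion for the Ass1 step, and lies on chromosome 6. It read 11.05, 11.23 and 11.17 in C57BL/6J and 11.19, 11.09 and 11.07 in B6.C3H-6T. The strains overlapped, and the difference of -0.03 ± 0.07 had an interval from -0.19 to 0.13 (limma adjusted p = 0.913). Whether the gene lies inside the C3H segment is not given in the labels.

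**Figure D2:**
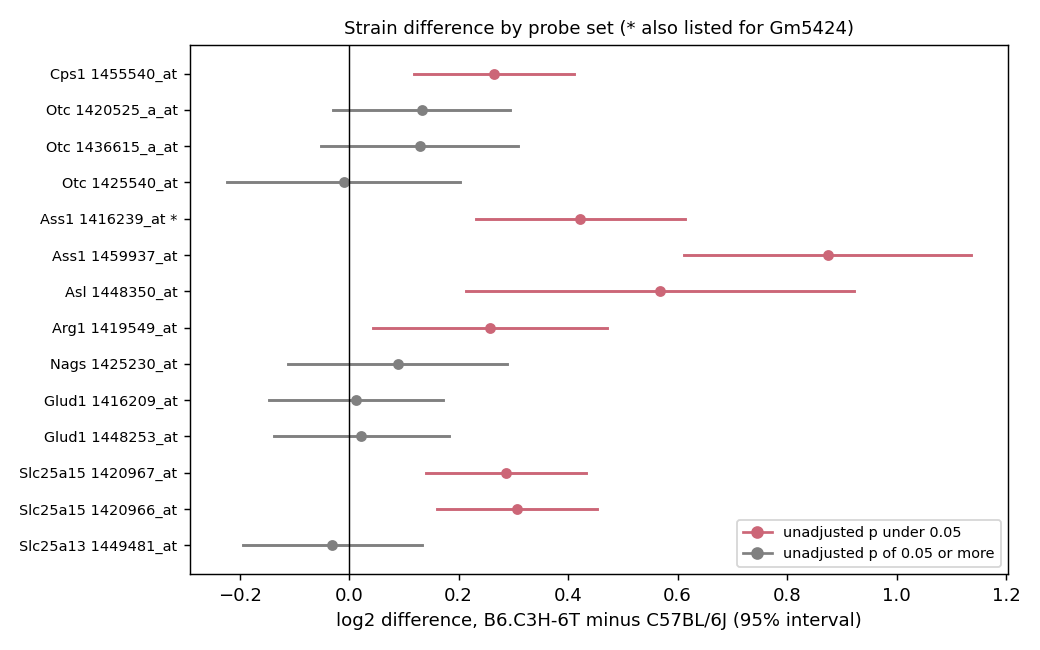
Log2 difference between the strains (horizontal axis, B6.C3H-6T minus C57BL/6J) for the 14 probe sets, as points with 95% intervals from limma, coloured by whether the unadjusted p is under 0.05. The Ass1 probe set 1459937_at is farthest from 0 at 0.87, and the intervals of Otc, Nags, Glud1 and Slc25a13 include 0.

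The members also varied among the mice of 1 strain. Taking each mouse's deviation from the C57BL/6J mean, the median over the 14 probe sets was 0.17, 0.30 and 0.13 in B6.C3H-6T replicates 1, 2 and 3, where over all probe sets it was 0.02, 0.01 and 0.01. B6.C3H-6T replicate 2 was the highest of its strain at 9 of the 14 member probe sets, including all 7 whose strains did not overlap, whereas over all probe sets it was highest of its strain at 30.0%. In this mouse Asl stood 0.96, Ass1 1.03 (1459937_at) and Arg1 0.44 above the C57BL/6J mean. C57BL/6J replicate 3 was the lowest of all 6 mice at 8 of the 14. How often it was the lowest over all probe sets was not counted. Its median deviation was -0.06 over the 14 and -0.02 over all probe sets, where the other C57BL/6J mice had 0.01. It was the highest of its strain at 1 of the 14 and at 23.9% of all probe sets. Without B6.C3H-6T replicate 2, 6 of the 14 were higher at an unadjusted p under 0.05. The share of all probe sets higher in that fit was not counted.

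**Figure D3:**
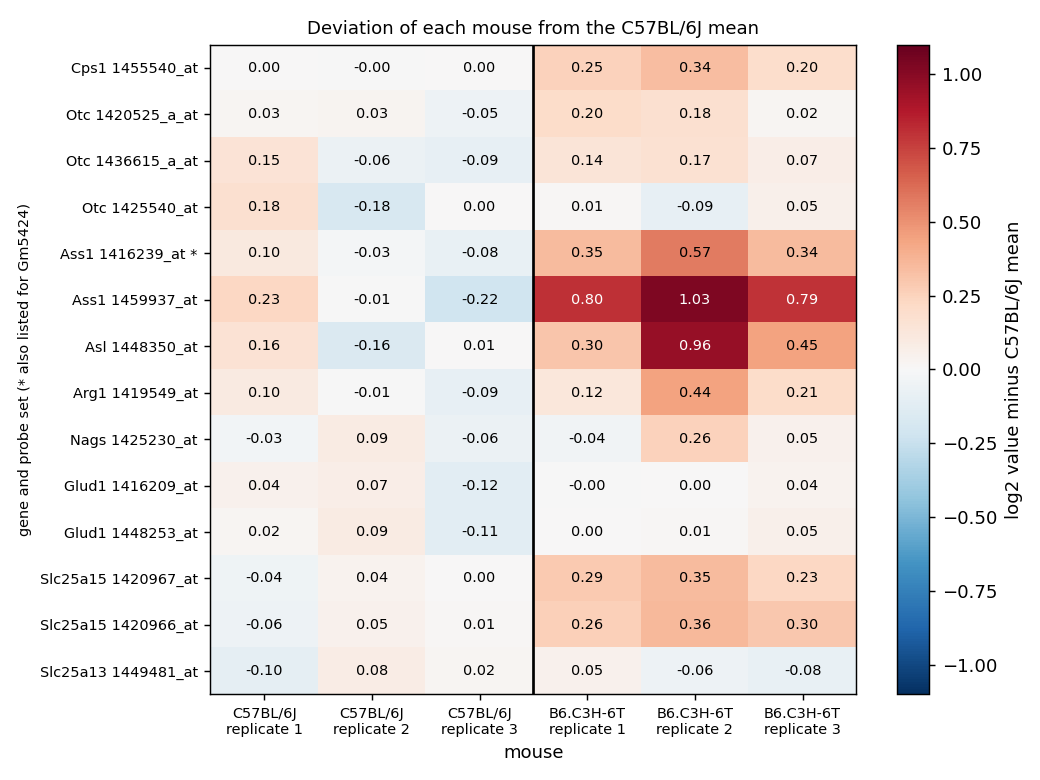
Each cell gives the log2 value of 1 mouse (columns) minus the C57BL/6J mean for 1 probe set (rows), with red above and blue below that mean. The B6.C3H-6T columns are red for Cps1, Ass1, Asl, Arg1 and Slc25a15, deepest in replicate 2 (1.03 for Ass1, 0.96 for Asl), and near white for Glud1 and Slc25a13.

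Of 42 other genes that supply nitrogen to the cycle or handle ammonia and amino acids, 37 had a probe set of their own. None of the 37 passed in limma over all genes. At an unadjusted p under 0.05, 12 were higher and 0 lower, against 6.36% of all genes higher and 5.82% lower. The list was chosen with earlier results of these data known, so this contrast is a description and not a test. Among the higher genes, Tat also counts as a hepatocyte marker and Oat as a pericentral one. The median difference was 0.11, against 0.02 over all genes. The count was 7 without C57BL/6J replicate 3 and also 7 when B6.C3H-6T replicate 2 was left out. Genes lower at that level numbered 3 with B6.C3H-6T replicate 1 left out, 1 with the third replicate of either strain left out, 2 after centring on array medians, and 1 without moderated variances, with the mean of a gene's probe sets or with the probe set of largest spread. Strains did not overlap at 10 of the 37 with B6.C3H-6T higher, against 10.3% of all genes.

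The aminotransferases that pass amino groups to glutamate or aspartate were among them. Got1, the cytosolic aspartate aminotransferase, read 11.78, 11.56 and 12.05 in C57BL/6J and 12.41, 12.94 and 12.27 in B6.C3H-6T, a difference of 0.74 ± 0.17 (limma adjusted p = 0.211). Tat, which degrades tyrosine, differed by 0.42 ± 0.09 (adjusted p = 0.200). The alanine aminotransferases Gpt2 and Gpt differed by 0.46 ± 0.12 and 0.36 ± 0.10, and all 3 other probe sets of Gpt2 were higher at an unadjusted p under 0.05. The 1 other probe set of Gpt was higher too but not at that level, and without probe sets ending in _x_at, _s_at or _a_at Gpt differed by 0.14 (unadjusted p = 0.0754 in limma). For these 4 genes no B6.C3H-6T mouse overlapped a C57BL/6J mouse. Got2, the mitochondrial aspartate aminotransferase, differed by 0.05 ± 0.07.

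Prodh, the first enzyme of proline breakdown, differed by 0.56 ± 0.18, with B6.C3H-6T replicate 1 inside the C57BL/6J range, and by 0.35 when B6.C3H-6T replicate 2 was left out. The amino acid carriers Slc7a2, which takes up arginine and other cationic amino acids, Slc38a2 and Slc38a3, which take up glutamine and other neutral amino acids, differed by 0.31 ± 0.09, 0.22 ± 0.08 and 0.20 ± 0.07. Their strains did not overlap, and their limma adjusted p ran from 0.286 to 0.339. All 3 other probe sets of Slc7a2 were higher at an unadjusted p under 0.05. The 2 others of Slc38a2 and the 1 other of Slc38a3 were higher but not at that level, and the mean of its probe sets put Slc38a2 at 0.14. Glul, the glutamine synthetase of the cells around the central vein, differed by -0.09 ± 0.07, and Arg2, the mitochondrial arginase, by 0.01 ± 0.12. The choice of Got2, Glul and Arg2 was made with their values known.

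Of 15 regulators listed for these genes, 4 were higher and 2 lower at an unadjusted p under 0.05, none passed in limma over all genes, and the median difference was -0.03. The shares over all genes at that level were 6.36% higher and 5.82% lower. With B6.C3H-6T replicate 2 or 3 left out, 2 regulators were higher, and leaving out B6.C3H-6T replicate 3 gave 3 lower. Without moderated variances 2 were higher and 0 lower, and without probe sets ending in _x_at, _s_at or _a_at 1 was lower. Klf15, a transcription factor of amino acid breakdown that itself lies on chromosome 6, read 10.31, 10.38 and 10.29 in C57BL/6J and 10.70, 11.00 and 10.81 in B6.C3H-6T. The strains were well apart at 0.51 ± 0.08 (limma adjusted p = 0.108). The forkhead factor Foxa2 differed by 0.47 ± 0.09 (adjusted p = 0.149) and Ppargc1a, a coactivator raised in fasting, by 0.23 ± 0.09. With C57BL/6J replicate 2 left out Ppargc1a came to 0.13 (unadjusted p = 0.114 in limma), and its probe set of largest spread also gave 0.13 (unadjusted p = 0.371). The remaining higher regulator, Cebpb, named with its value known, differed by 0.28 ± 0.11 with the strains overlapping. On the other side were Foxa3 at -0.60 ± 0.17 and Creb3l3, a factor of the fasted liver, at -0.38 ± 0.12, which became -0.23 with B6.C3H-6T replicate 2 left out. The receptors for glucagon (Gcgr) and glucocorticoids (Nr3c1) differed by -0.06 ± 0.07 and -0.03 ± 0.09, with intervals from -0.22 to 0.09 and from -0.24 to 0.18. These receptors were named with their values known.

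Of 10 further targets of glucagon or glucocorticoids, 5 were higher and 0 lower at an unadjusted p under 0.05, with a median difference of 0.27 and none passing over all genes. In the fit on all 6 mice 6.36% of all genes were higher at that level. Of the 10, 3 were higher with C57BL/6J replicate 3 left out or without moderated variances. Leaving out C57BL/6J replicate 1 made 1 of the 10 lower, as did leaving out the congenic mouse of replicate 1 or of replicate 2. Ddit4, an mTOR inhibitor gene, read 7.50, 7.16 and 7.33 in C57BL/6J and 7.90, 8.48 and 8.23 in B6.C3H-6T, a difference of 0.87 ± 0.14 (limma adjusted p = 0.101, and 0.0294 without B6.C3H-6T replicate 1). Tsc22d3, also known as Gilz, differed by 0.48 ± 0.13 and the tryptophan dioxygenase gene Tdo2 by 0.31 ± 0.11. Without probe sets ending in _x_at, _s_at or _a_at, Tsc22d3 differed by 0.13 (unadjusted p = 0.128 in limma), and 2 of its 3 other probe sets were higher at an unadjusted p under 0.05. Tdo2 came to 0.19 with B6.C3H-6T replicate 2 left out (unadjusted p = 0.0735) and to 0.58 with its probe set of largest spread. Tat and Tdo2 belong to this list and to the nitrogen list. By mean, 8 of the 10 were higher and 2 lower, where 10203 of all 18193 genes were higher. Per1 differed by 0.56 ± 0.20, G6pc by 0.24 ± 0.11, Sgk1 by 0.13 ± 0.11 and Pck1 by 0.13 ± 0.10. Igfbp1 differed by -0.22 ± 0.13 and Fkbp5 by -0.27 ± 0.15. Of these further genes all but Per1 had a 95% interval that includes 0, and all were named with their values known.

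**Figure D4:**
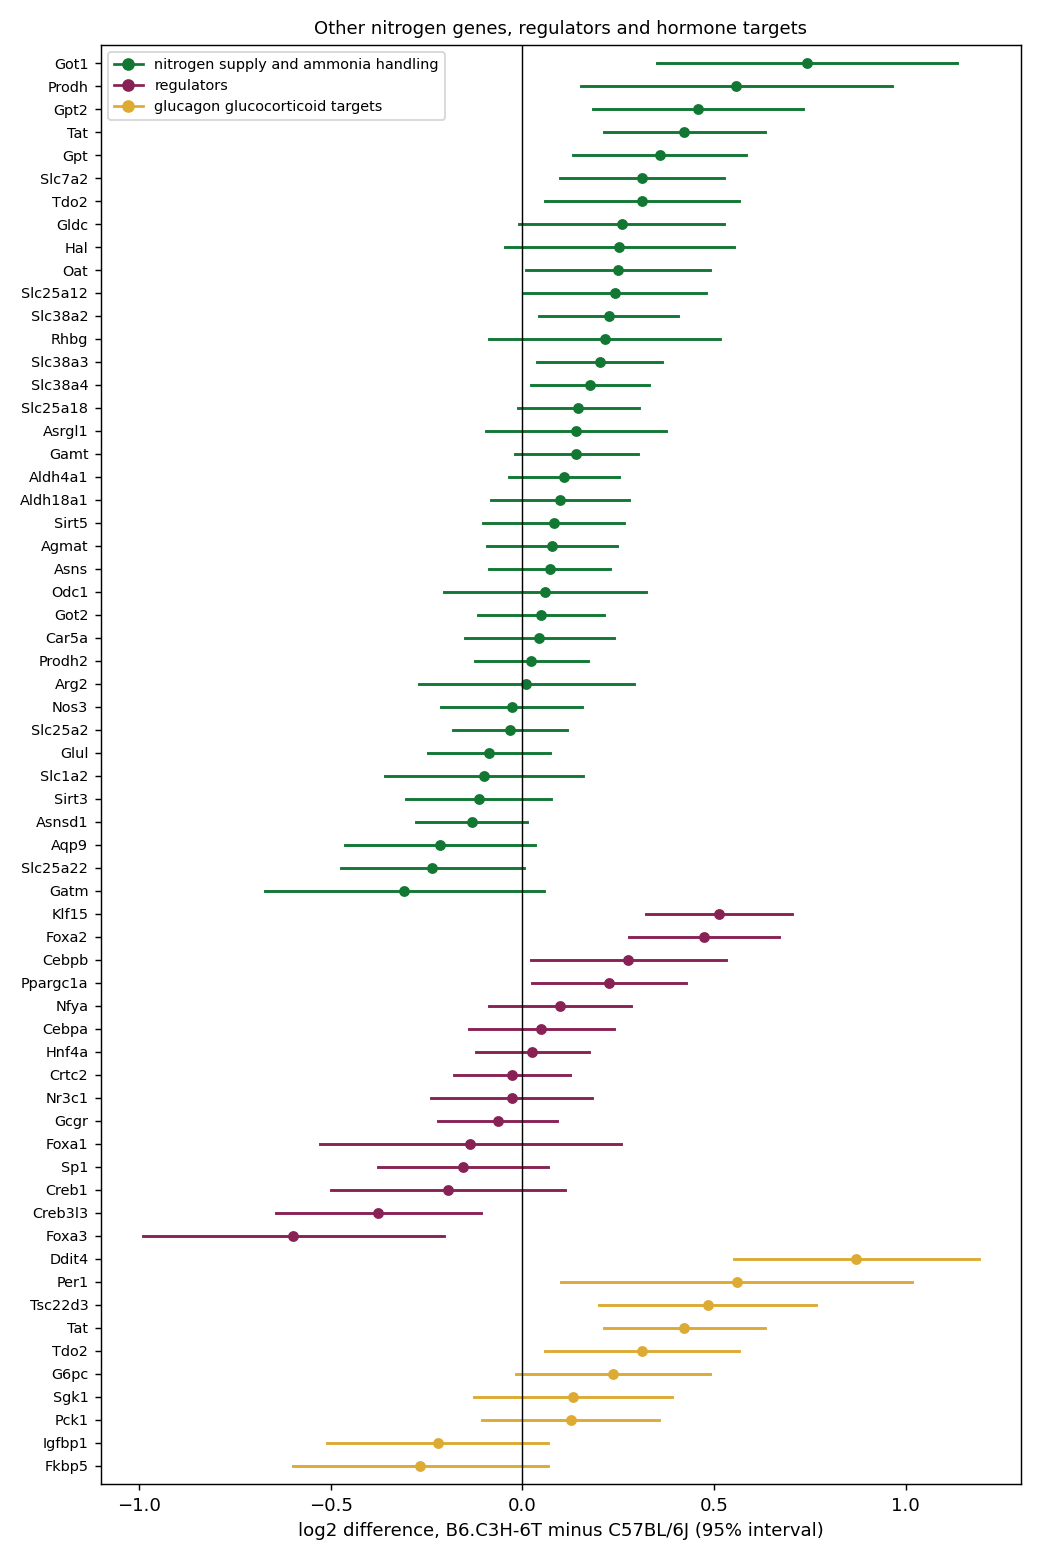
Log2 difference between the strains (horizontal axis, B6.C3H-6T minus C57BL/6J) with 95% intervals from limma for 37 nitrogen genes, 15 regulators and 10 hormone targets, ordered by difference within each list. The nitrogen genes run from 0.74 for Got1 to -0.31 for Gatm, and the regulators from 0.51 for Klf15 to -0.60 for Foxa3.

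Because the cycle is strongest near the portal vein, markers of the liver's zones were set beside it. Of 8 periportal markers, 2 were higher and 1 lower at an unadjusted p under 0.05. The higher were Aldh1b1 at 0.62 ± 0.12 and Uroc1, which lies on chromosome 6, at 0.32 ± 0.10. The lower was Ctsc at -0.35 ± 0.14, named with its value known. Without probe sets ending in _x_at, _s_at or _a_at, Uroc1 differed by 0.24 (unadjusted p = 0.0846 in limma). Of 9 pericentral markers, 2 were higher and 1 lower, with Lgr5 at -0.45 ± 0.09 (-0.24 as the mean of its probe sets) and Cyp1a2 at 0.26 ± 0.10. Over all genes 6.36% were higher and 5.82% lower at that level. With 1 mouse left out, the periportal list had 2 or 3 higher and 0 or 1 lower, and the pericentral list 0 to 3 higher (0 without B6.C3H-6T replicate 1, 3 without C57BL/6J replicate 2) and 1 or 2 lower. None of these passed in limma over all genes. The summed level of the periportal list ran from 27104 to 30797 in C57BL/6J and from 30523 to 32956 in B6.C3H-6T, and that of the pericentral list from 31955 to 36558 and from 35219 to 38139. Both pairs of ranges overlapped, and the part of zonation in the values of the members was not tested.

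The 5 genes whose values followed Ass1 (1459937_at) most closely over the 6 mice, among 8890 other genes with a mean of at least 7, were Baat, Stra6l, Cutal, Qdpr and Afmid, with Pearson correlations from 0.997 to 0.988. The 3 most opposed were Nenf, Klhl7 and Wdr73, from -0.991 to -0.986. With 6 mice in 2 strains these values rest largely on the strain difference that all 8 genes share, and the order is a description only. In this ranking Cps1 stood at place 84, Slc25a15 at 175, Arg1 at 256, Asl at 347 and Otc at 698. Nags stood at 2043, Glud1 at 3187 and Slc25a13, with a correlation of -0.40, at 6287.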

How the data were processed

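Liver RNA of 6 mice was measured on Affymetrix arrays, 1 mouse per array. The deposited values are log2 expression values that the authors computed by RMA (the submitters' processing notes also name the package affy). Versions and any later step are not given in the sources used here. Labelling started from an oligo(dT) primer per the labels' protocols, so signal comes chiefly from the 3' end of transcripts, and sequence differences between strains under the probes can alter it.

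The strain difference was fitted in R 4.3.3 by limma 3.58.1 (lmFit, eBayes; no covariate, no filter) for 45037 probe sets, after 64 control probe sets were left out, with Benjamini-Hochberg adjustment over all of them and a threshold of 0.05. Lists were read from a second fit on 18193 genes, each represented by the probe set of highest mean among those listed for it alone. Symbols were updated through a RefSeq table of GRCm38.p6. Probe sets of 1 gene were compared by two-sided exact permutation tests. Promoter sequences come from RefSeq (GRCm38.p6). The fit was also run on simulated data with independent noise. Recovery of differences as small as those of the members is not reported here.

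The members and lists were chosen with earlier results of these data known, so their counts beside the shares over all probe sets or genes are descriptions and not tests. Named genes are all members, up to 8 nitrogen genes, 5 regulators, 4 hormone targets and 2 markers per list of smallest unadjusted p under 0.05, and the 5 genes most and 3 least like Ass1. Replicate numbers follow accession order and pair no mice. The number of arrays, 3 per strain, limits the precision.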

Additional observations from a re-analysis of the deposited data

How the results depend on the processing

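Of the 14 member probe sets, those of Cps1, Ass1, Asl, Arg1, Slc25a15 and Nags, and the brighter 2 of Otc, kept their direction under every alternative run. The direction of differences near 0 was not fixed. Centring on array medians turned Glud1 to -0.014 (1416209_at and the gene fit) and -0.0031 (1448253_at). Otc as a gene became -0.0096 without probe sets ending in _x_at, _s_at or _a_at, and likewise with the probe set of largest spread. Without 1 mouse, Glud1 ran from -0.046 to 0.048 (1416209_at) and from -0.033 to 0.068 (1448253_at), Otc 1425540_at from -0.099 to 0.078 and Slc25a13 from -0.081 to 0.0083.

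No member probe set passed in limma as deposited, although 7 had an unadjusted p under 0.05. Among the member probe sets 1 passed, Ass1 1459937_at, among brighter probe sets, with a variance trend, and with 1 probe set a gene (adjusted p = 0.0449, 0.0389 and 0.0411), and 0 or 1 passed without 1 mouse (0.0365 without C57BL/6J replicate 1). Its adjusted p ran from 0.0365 to 0.497 over all alternatives. As a gene, Ass1 missed the threshold with the mean of its probe sets (0.0550), though it has 1 probe set of its own, since the other genes tested then change. Over all probe sets 26 passed, 11 to 17 without 1 mouse, 13 with 1 probe set a gene and 0 without moderated variances, where 3841 had an unadjusted p under 0.05. Of genes 13 passed, 6 to 18 without 1 mouse and 0 without moderated variances, where 1746 had an unadjusted p under 0.05. Member genes higher at an unadjusted p under 0.05 numbered 5, 4 to 6 without 1 mouse and 3 without moderated variances. The shares of all genes or probe sets that were higher at that level were not counted in the alternative fits. The adjustment over genes of p-values from the fit on all probe sets was added after seeing the data. No paired analysis was possible because the labels give no replicate number shared by the strains.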
